A study of Mus musculus with 8 samples.

Results

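The T cell receptor beta segments are the gene pieces from which a T cell builds the variable part of its receptor beta chain. Every gene whose symbol starts with Trbv, Trbd or Trbj was taken, which gave 51 of the 55573 genes in the count table: 35 V, 2 D and 14 J segments. The cells were naive CD8+ T cells, cytotoxic lymphocytes that have not met antigen, isolated from spleen and lymph nodes of male C57BL/6 mice by magnetic CD8a enrichment and flow sorting. There were 5 libraries labelled Furin KO, which lack the proprotein convertase FURIN according to the series title, and 3 labelled WT. Mice were aged 7 weeks for the first replicate of each genotype and 8 weeks for all other libraries. The labels name no treatment with an agent. The labels give neither the allele, nor the Cre driver if there was one, nor the number of mice per library, so p-values measure the spread between samples and part of that spread may be technical.

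In a developing T cell of the thymus, the recombinase made of RAG1 and RAG2 first joins a D to a J segment and then a V segment to the DJ unit. The joint of the V, D and J pieces encodes the third complementarity determining region, the loop that mostly contacts the peptide in the MHC molecule. The joined exon is spliced to a constant region, Trbc1 or Trbc2, and a mature naive cell keeps the choice it made in the thymus. The usage of segments in RNA from many cells is thus a summary of their repertoire, weighted by the RNA each cell holds.

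The segments lie on chromosome 6 of GRCm38 over 667 kb, in the order of most V segments, D1, the Trbj1 cluster, D2, the Trbj2 cluster and, beyond them on the opposite strand, Trbv31. Sequences were taken from the GENCODE M21 transcripts of the same build and are printed 5′ to 3′ on the sense strand of the segment. The end of a V segment, after the codon of its conserved cysteine, lies at the joint. The last 36 bases of the 6 V segments with the highest usage are shown, with Trbv1 as a segment without the motif. Capitals mark TGTGCNAGC, searched on the sense strand only. It begins with that cysteine codon, with which the loop starts.

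Trbv13-2 (chr6:41121797-41121832, plus strand): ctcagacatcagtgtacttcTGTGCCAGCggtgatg
Trbv13-1 (chr6:41116433-41116468, plus strand): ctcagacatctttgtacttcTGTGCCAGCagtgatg
Trbv13-3 (chr6:41130550-41130585, plus strand): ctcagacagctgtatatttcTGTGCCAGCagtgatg
Trbv16 (chr6:41152195-41152230, plus strand): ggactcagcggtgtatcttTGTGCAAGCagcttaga
Trbv15 (chr6:41141623-41141658, plus strand): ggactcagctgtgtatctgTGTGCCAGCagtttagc
Trbv3 (chr6:41048793-41048828, plus strand): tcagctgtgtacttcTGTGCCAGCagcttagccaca
Trbv1 (chr6:40891850-40891885, plus strand): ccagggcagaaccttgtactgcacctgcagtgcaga

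The motif was present in 17 of the 22 segments annotated as V genes and in 4 of the 13 annotated as V pseudogenes. Of the adjacent 36-base windows over the annotated transcripts, 0.0612% held it. The 5 V genes without these letters were Trbv1, Trbv20, Trbv23, Trbv30 and Trbv31, of which Trbv1, Trbv20 and Trbv31 each made up more than 1% of the Trbv counts. The 3 members of the Trbv13 family end alike: over the last 280 bases Trbv13-2 shared 91.4% of bases with Trbv13-3 and 88.2% with Trbv13-1, against a median of 53.2% over 435 pairs of V segments.

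The 2 D segments are short and rich in G, and both are shown whole. They encode the middle of the loop.

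Trbd1 (chr6:41533201-41533212, plus strand): gggacagggggc
Trbd2 (chr6:41542163-41542176, plus strand): gggactgggggggc

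The J segments end the joined exon. Shown are those with the highest counts (Trbj2-3, Trbj1-4, Trbj1-6), those with the largest differences between genotypes or libraries (Trbj1-5, Trbj1-1, Trbj1-2, Trbj2-2) and those that lack the motif (Trbj1-6, Trbj1-7, Trbj2-6). Capitals mark TTNGGNNNNGG on the sense strand, a pattern that most J segments carry just after the part that enters the loop.

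Trbj2-3 (chr6:41543223-41543271, plus strand): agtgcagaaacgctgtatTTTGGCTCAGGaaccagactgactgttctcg
Trbj1-4 (chr6:41534811-41534861, plus strand): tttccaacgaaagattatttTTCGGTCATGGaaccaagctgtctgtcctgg
Trbj1-5 (chr6:41535084-41535133, plus strand): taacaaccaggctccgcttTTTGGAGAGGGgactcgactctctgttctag
Trbj1-1 (chr6:41533864-41533911, plus strand): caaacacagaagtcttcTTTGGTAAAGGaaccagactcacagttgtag
Trbj1-2 (chr6:41534001-41534048, plus strand): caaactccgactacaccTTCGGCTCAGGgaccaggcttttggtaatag
Trbj2-2 (chr6:41542957-41543007, plus strand): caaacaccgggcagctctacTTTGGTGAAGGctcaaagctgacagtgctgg
Trbj1-6 (chr6:41535554-41535606, plus strand): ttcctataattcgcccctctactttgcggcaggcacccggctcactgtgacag
Trbj1-7 (chr6:41535642-41535687, plus strand): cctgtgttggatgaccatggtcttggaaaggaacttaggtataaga
Trbj2-6 (chr6:41543598-41543645, plus strand): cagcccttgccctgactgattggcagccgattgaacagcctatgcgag

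The motif was present in 11 of the 13 J segments annotated as genes and not in the pseudogene Trbj2-6. Of the adjacent 50-base windows over the annotated transcripts, 0.891% held it. Trbj1-6 has none of these matches, yet its counts were among the 3 highest of the J segments.

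The libraries held 11308220 to 21040431 counts in all, with Furin KO replicate 5 the shallowest. Furin itself, the targeted gene, stood at 57.0, 66.8 and 66.9 CPM (reads of a gene relative to the TMM-normalised library total) in WT and at 63.5, 86.4, 62.2, 58.0 and 76.6 CPM in Furin KO, in replicate order. Its gene-level count was thus no lower under the Furin KO label than under WT, and directions below are between labels. The 8 fixed markers of naive CD8 T cells summed to 9454 to 10898 CPM in WT and 9817 to 11233 CPM in Furin KO. For other cells, the 4 markers of B cells summed to 19.5 to 28.6 CPM, nearly all of it Cd79b, with Ms4a1 at 0 counts throughout. The 2 NK cell markers reached at most 0.450 CPM, with Ncr1 at 0. The 4 markers of invariant NKT and MAIT cells, which use restricted V segments, summed to 0.238 to 3.26 CPM, with Trav11 at 0, and the 5 of gamma-delta T cells to 12.2 to 17.7 CPM. The 4 markers of CD4 and regulatory T cells summed to 34.3 to 49.9 CPM in WT and 47.2 to 67.8 CPM in Furin KO, mostly Izumo1r, while Cd4 was at most 0.892 CPM. The 4 markers of memory or activated CD8 T cells summed to 2.53 to 5.15 CPM in WT and 8.15 to 11.8 CPM in Furin KO, without overlap and mostly through Tbx21. Of all genes tested, 2.9% did not overlap by CPM, and Tbx21 had an edgeR adjusted p of 0.17. No gene of these lists passed the edgeR test, where 0.032% of all genes tested did. The part of such cells in the usage values was not tested.

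The summed level of segment RNA overlapped between the genotypes. The summed Trbv counts were 463, 633 and 607 CPM in WT and 534, 575, 628, 550 and 605 CPM in Furin KO. The means were 578 ± 38.5 CPM (SD, n = 5) in Furin KO and 568 ± 91.3 CPM (n = 3) in WT, and WT replicate 1 was the lowest of all. Summed Trbj counts were 115 ± 9.39 and 116 ± 21.2 CPM, and summed Trbd counts 15.0 ± 2.55 and 12.9 ± 2.69 CPM. All these ranges overlapped. In bulk RNA, fewer cells that use a segment and less receptor RNA per cell cannot be told apart. Set against the constant region, there were 39.7 ± 2.48 Trbv counts per 100 Trbc counts in Furin KO and 38.0 ± 2.33 in WT, so that the difference between genotypes was smaller than the SD within each. The ratio of Trbj to Trbv counts varied more from library to library than between genotypes: it was 25.5, 21.5 and 15.5 Trbj counts per 100 Trbv counts in WT and 21.5, 22.1, 16.8, 21.8 and 17.5 in Furin KO.

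**Figure D1:**
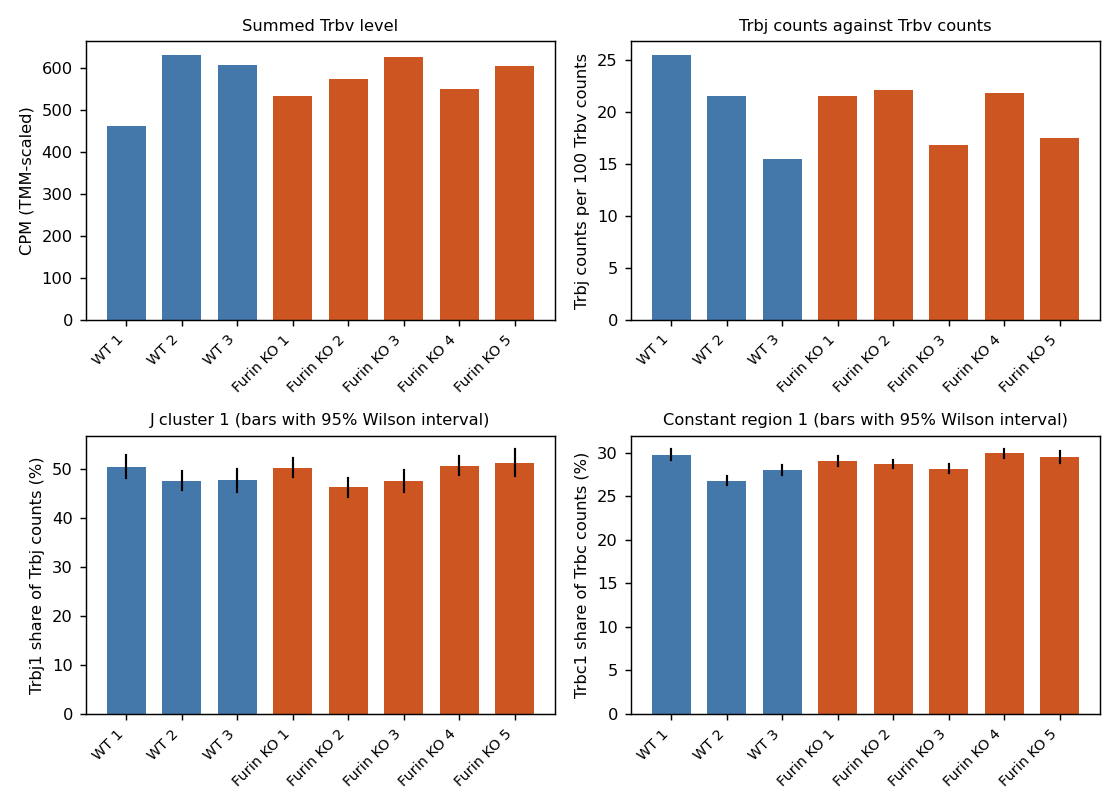
Level and make-up of the beta locus in each library (WT blue, Furin KO orange): summed Trbv CPM, Trbj counts per 100 Trbv counts, and the Trbj1 and Trbc1 shares in percent with 95% Wilson intervals of the counts as black lines. The genotypes overlap in all 4 panels, and the ratio of Trbj to Trbv counts runs from 15.5 to 25.5.

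Of the 51 segments, 37 passed the filter on low counts (21 V, both D and all 14 J). With edgeR (quasi-likelihood, p adjusted by Benjamini-Hochberg over all 12500 genes tested), 0 of the 37 passed an adjusted p under 0.05, against 0.032% of all genes tested (4 genes). At an unadjusted p under 0.05 the count was also 0 of 37, against 3.21% of all genes, and DESeq2 called 0. Log2 fold changes, Furin KO over WT, ran from -0.60 (Trbv23) to 0.55 (Trbv24), with 19 above 0 and 18 below. Their median was 0.04, that of all genes tested -0.00068. No tested segment had CPM values that separated the 5 Furin KO from the 3 WT libraries, where 2.9% of all genes tested did. The median width of the 95% interval was 0.92 on the log2 scale for the segments and 0.66 for all genes. Intervals of this width do not show that the genotypes are alike at a given segment.

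**Figure D2:**
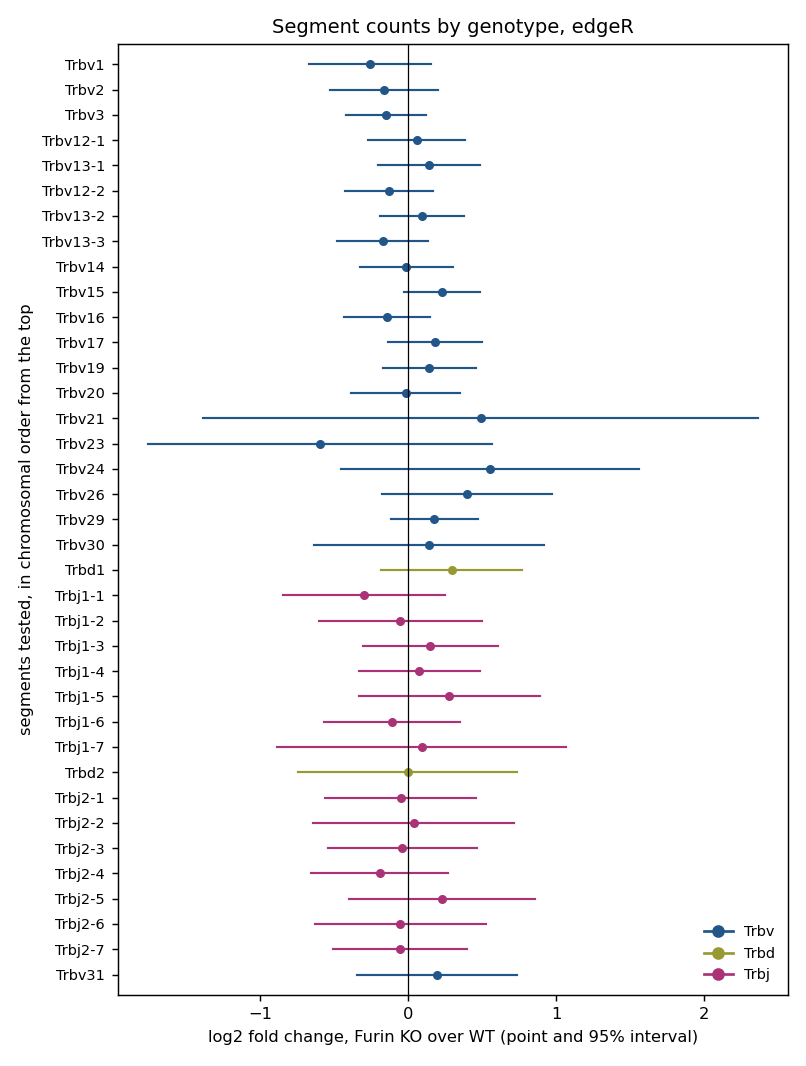
Log2 fold change of CPM, Furin KO over WT, with 95% interval, of the 37 segments tested, in chromosomal order from the top (V blue, D olive, J magenta). All intervals include 0, and the widest are those of Trbv21, Trbv23 and Trbv24, which had at most 97 counts in a library.

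V usage was taken as the share of each segment in all Trbv counts of its library, which numbered 6748 to 12122. Counts were spread over many segments: 17 had a mean share of at least 1% and together held 97.9% to 99.1% of the Trbv counts. The effective number of V segments, the exponential of the Shannon entropy of the shares, was 16.1 ± 0.423 in Furin KO and 15.97 ± 0.00686 in WT. The 6 leading segments held 49.1% to 53.4% of the counts of a library.

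Trbv13-2, a member of the family known as Vbeta8, was the first-ranked segment in 8 of 8 libraries. Its share was 11.2%, 12.8% and 12.2% in WT and 11.8%, 12.4%, 12.4%, 13.1% and 13.6% in Furin KO. The 95% Wilson interval of 1 such share was about as wide as 11.2% to 12.4% (Furin KO replicate 1), and such intervals cover counting error only. The Furin KO mean was 12.7% ± 0.720 (n = 5) and the WT mean 12.04% ± 0.797 (n = 3), with overlap and an exact two-sided permutation p of 0.304 (56 arrangements, smallest possible 0.018). Its near relatives Trbv13-1 and Trbv13-3 ranked 4 and 6 by mean share. Trbv13-1 held 6.48%, 7.44% and 6.36% in WT and 6.76%, 8.19%, 7.15%, 6.08% and 8.49% in Furin KO. The lowest and the highest share of this segment were both in Furin KO libraries. Trbv13-3 held 8.36%, 6.56% and 7.73% in WT and 6.08%, 6.57%, 7.95%, 6.08% and 5.70% in Furin KO. Among the 17 segments with a mean share of at least 1% it had one of the 2 largest falls of the mean share, at -0.22 on the log2 scale (exact permutation p = 0.179), yet Furin KO replicate 3 lay above 2 of the WT libraries. Summed over the 3 members, the Trbv13 family held 26.5% ± 1.45 of the Trbv counts in Furin KO and 26.3% ± 0.385 in WT.

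Trbv16 ranked 2 or 3 in every library. It held 9.94%, 11.5% and 9.76% in WT and 8.87%, 8.82%, 9.91%, 9.83% and 9.04% in Furin KO. Its mean share was 1.12 percentage points lower in Furin KO, the largest such fall, but 2 Furin KO libraries lay above WT replicate 3 (exact two-sided permutation p = 0.0893). The interval of the log2 ratio of usage, from edgeR with Trbv totals as library sizes, was -0.48 to 0.15. Trbv15 showed the opposite order, with 8.88%, 7.22% and 7.73% in WT and 8.58%, 7.93%, 8.99%, 9.82% and 9.80% in Furin KO. The mean was 1.08 points higher in Furin KO, the largest rise in points, with WT replicate 1 inside the Furin KO range (exact permutation p = 0.125; interval of the log2 ratio -0.14 to 0.51). Trbv3 held 8.46%, 6.42% and 7.81% in WT and 7.08%, 7.18%, 6.95%, 6.38% and 5.45% in Furin KO. Here WT replicate 2 was among the lower values, and the exact permutation p was 0.214.

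**Figure D3:**
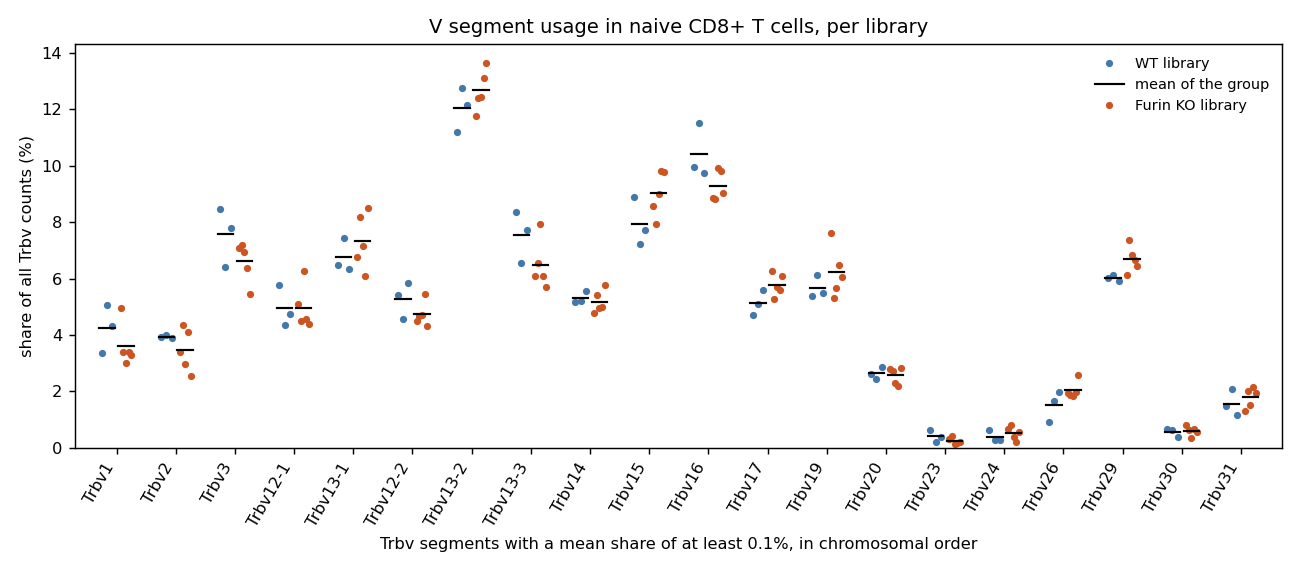
Share of each V segment in all Trbv counts (percent) for each library, in chromosomal order, with the group mean as a black line; the 20 segments with a mean share of at least 0.1% are drawn. Trbv13-2 leads in every library at 11.2% to 13.6%, and at none of the 17 segments above 1% do the blue WT points separate from the orange Furin KO points.

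Among the 17 segments with a mean share of at least 1%, Trbv26 and Trbv31 had the largest rises of the mean share on the log2 scale and Trbv1 the largest fall. Trbv26 held 0.919%, 1.65% and 1.97% in WT and 1.94%, 1.86%, 1.85%, 1.96% and 2.59% in Furin KO. The ratio of the means was 0.43 on the log2 scale (exact permutation p = 0.107), and WT replicate 1 and Furin KO replicate 5, the 2 libraries with the fewest Trbv counts, were the low and the high end. WT replicate 3 lay above 4 of the 5 Furin KO libraries. Trbv31, the only V segment beyond the J clusters and the one that joins by inversion, held 1.47%, 2.09% and 1.14% in WT and 1.31%, 2.01%, 1.51%, 2.16% and 1.93% in Furin KO (log2 ratio 0.19, exact permutation p = 0.482). Trbv1, at the far end of the locus, held 3.36%, 5.07% and 4.33% in WT and 4.96%, 3.40%, 3.02%, 3.38% and 3.27% in Furin KO. Its log2 ratio was -0.24 (exact permutation p = 0.339; interval -0.65 to 0.17), and Furin KO replicate 1 stood with the high WT libraries.

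Trbv29 came closest to separating the genotypes and was picked out after its values were seen. It held 6.02%, 6.14% and 5.92% in WT and 6.13%, 7.36%, 6.83%, 6.66% and 6.44% in Furin KO. WT replicate 2 and Furin KO replicate 1 crossed by less than the width of a counting interval, and the exact two-sided permutation p of 0.0714 was the lowest among the 17 V segments. These p-values were not adjusted, and with 17 V and 14 J segments compared none of them stands as a call. Of the 17 segments, 9 had a higher and 8 a lower mean share in Furin KO, and 0 had shares that did not overlap between genotypes (2.9% of all genes tested did not overlap by CPM). That count of 0 changed when libraries were left out. It became 3 in the libraries of 8 weeks alone, where Trbv15 and Trbv29 were higher and Trbv1 lower in Furin KO. It also became 3 without WT replicate 3 (Trbv16 lower, Trbv17 and Trbv26 higher), 2 without WT replicate 2 (Trbv3 lower, Trbv29 higher), 1 without WT replicate 1 (Trbv15 higher) and 1 without Furin KO replicate 1 (Trbv29 higher). No segment was in all of these sets. With fewer libraries a full separation arises more easily, and the share of all genes was not taken for these smaller sets. These counts are therefore not read as results about the segments.

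The shares varied between libraries by more than counting error. The chi-square of a segment's counts over the 8 libraries, per degree of freedom, was 2.24 to 19.5 with a median of 10.01 over the 17 V segments, where counting error alone gives about 1. It was highest for Trbv1 and lowest for Trbv14. Between pairs of libraries, this spread overlapped for the same and for different genotypes. The share of Trbv counts that would have to move to a different segment to turn one library's usage into another's was 5.58% to 11.1% (median 6.94%) over 15 pairs of different genotype. It was 5.81% to 7.67% (median 6.61%) over 10 pairs of Furin KO libraries and 5.09% to 8.76% (median 6.55%) over 3 WT pairs. Counting error alone would give 2.12% to 2.82%. Pairs of different genotype had the highest median and the highest single value. That single value was the pair of WT replicate 1 and Furin KO replicate 5, the libraries with the fewest Trbv counts (6748 and 6880). The pairs share libraries, so these are descriptions, and whether the spread follows the genotype was not tested.

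**Figure D4:**
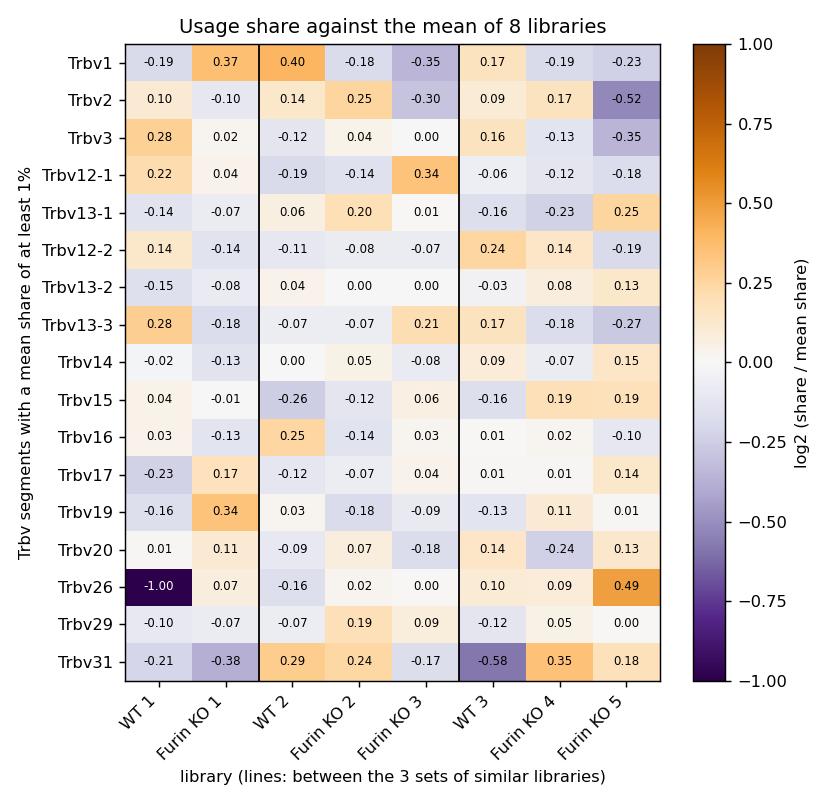
Log2 ratio of each library's V usage share to the mean share over the 8 libraries, for the 17 segments with a mean share of at least 1% (orange above, purple below the mean). Vertical lines divide 3 sets of libraries from clustering on all genes, cut at a fixed number of 3. The lowest values are Trbv26 in WT replicate 1 (-1.004) and Trbv31 in WT replicate 3 (-0.58), and at no segment do all WT values separate from all Furin KO values.

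The libraries were clustered on all genes and cut into 3 sets, a number fixed in the procedure, and each set held 1 WT library. The division was narrow. The chi-square per degree of freedom between libraries reached 16.6 within a set and was as low as 16.7 between sets. The set of WT replicate 1 and Furin KO replicate 1 is the same as the 7-week mice. The other sets are consecutive runs of the numbered sample titles of the 8-week libraries. What divides these runs is not named in the labels. Within the 3 sets, the Trbv16 share was 9.94%, 11.5% and 9.76% in WT against means of 8.87%, 9.36% and 9.44% in Furin KO. Trbv29 was 6.02%, 6.14% and 5.92% against 6.13%, 7.09% and 6.55%, and Trbv26 0.919%, 1.65% and 1.97% against 1.94%, 1.86% and 2.28%. Of the 17 V segments with a mean share of at least 1%, 7 had the same direction in all 3 sets: Trbv13-1, Trbv17, Trbv26 and Trbv29 were higher in Furin KO and Trbv2, Trbv14 and Trbv16 lower. The other 10 were mixed, among them Trbv15, Trbv13-2, Trbv13-3 and Trbv1. The 3 segments given with values were picked after these were seen. With 1 WT library in each set, no set gives a test of its own. The share of all genes with the same direction in all 3 sets was not taken. The count of 7 is therefore not read as a result about the segments.

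The order of the V segments was partly stable. Trbv13-2 stood above Trbv16 in 8 of 8 libraries and Trbv16 above Trbv15 in 7, but Trbv13-1 stood above Trbv3 in only 4 and Trbv3 above Trbv13-3 in 5. The order of the segments ranked 4 to 6 thus changed from library to library, and the differences between them were not tested. Further down, Trbv2 stood above Trbv20 in 7 libraries and Trbv20 above Trbv26 in 8 of 8. The usage of the 17 segments was only weakly related to their exonic length of 335 to 566 bases (Spearman's rho -0.20) or to their position along the chromosome (rho -0.18), both given as descriptions over 17 segments in the same libraries. Counts per base of length gave nearly the same order (rho 0.96), with Trbv13-2 at 14.1% and Trbv16 at 9.40% of the length-scaled total.

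Low and absent V segments mostly followed the annotation. Of the 13 pseudogenes, 9 had 0 counts in all 8 libraries. The other 4 were Trbv6 (at most 1 count), Trbv22 (at most 4), Trbv12-3 (at most 9) and Trbv24, which reached 97 counts and a mean share of 0.470%. Pseudogenes together made up 0.559% ± 0.242 of the Trbv counts in Furin KO and 0.419% ± 0.173 in WT. Of the 22 V genes, Trbv5 alone had 0 counts in every library, which allows at most 0.0445% of the Trbv counts in the library with the fewest of them. Trbv4 had 0 to 12 counts. Trbv4 and Trbv5 have 75.1% and 79.3% of their exonic bases inside exons of 5830405F06Rik, a long noncoding RNA gene on the same strand with 7 to 31 counts. How the counting treated reads inside both genes is not given in the sources used here, so the low values of both segments are uncertain. The near copies Trbv13-2 and Trbv13-3 shared 1 of 291 windows of 50 bases, and other V segments above 1% shared none except Trbv12-2, which shared 4 of 336 with Trbv12-3. Of 28 other genes that lie between the segments, 23 had 0 counts. Prss2, a trypsinogen gene of the pancreas that lies just before Trbd1, had 0 to 49 counts.

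Both D segments were detected. Trbd1 stood at 8.72, 12.4 and 6.63 CPM in WT and at 12.1, 12.4, 12.7, 10.96 and 8.44 CPM in Furin KO. The ranges overlapped, with a log2 fold change of 0.29 (95% interval -0.18 to 0.77; edgeR adjusted p = 0.9998). Trbd2 stood at 3.23, 3.60 and 4.22 CPM in WT and at 3.10, 5.89, 3.36, 3.05 and 2.90 CPM in Furin KO (log2 fold change -0.0041, interval -0.74 to 0.73). Trbd1 made up 75.8% ± 4.95 of the Trbd counts in Furin KO and 70.5% ± 8.43 in WT, and it led in 8 of 8 libraries. With segments of 12 and 14 bases and 33 to 258 counts, the D values come from reads that overlap a very short stretch, and joining trims D ends, so the D counts do not measure D usage as V counts measure V usage.

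J segments were read from 1202 to 2655 Trbj counts per library. Gene counts do not tell joined from unjoined transcripts, and the pseudogene Trbj2-6 took 5.58% ± 1.08 of the Trbj counts in Furin KO and 5.64% ± 0.961 in WT. J shares are therefore shares of RNA over these stretches. The Trbj1 cluster held 50.5%, 47.7% and 47.7% of the Trbj counts in WT and 50.3%, 46.3%, 47.6%, 50.7% and 51.3% in Furin KO. The means were 49.2% ± 2.19 in Furin KO and 48.6% ± 1.62 in WT, a difference within the SD of either group. Trbc1, the constant region next to the Trbj1 cluster, held 29.1% ± 0.680 of the Trbc counts in Furin KO and 28.2% ± 1.497 in WT. The Trbc1 share was lower than the Trbj1 share in every library. The likeness of the Trbc1 and Trbc2 sequences was not examined, and the treatment of multi-mapping reads is not given. Why these shares differ was not tested.

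Trbj2-3 had the highest J share. It held 12.8%, 12.5% and 12.7% in WT and 14.5%, 13.7%, 14.0%, 12.8% and 6.49% in Furin KO. Furin KO replicate 5 stood far below the other 7 libraries, and without it the 4 remaining Furin KO libraries lay above all WT libraries. With all libraries the exact permutation p was 1.0. Trbj1-4 held 10.2%, 9.39% and 10.2% in WT and 11.3%, 10.02%, 8.55%, 11.6% and 11.1% in Furin KO (exact permutation p = 0.464). Trbj1-6 held 9.98%, 11.4% and 9.09% in WT and 8.75%, 9.98%, 12.4%, 8.99% and 8.07% in Furin KO (exact permutation p = 0.679). The groups overlapped widely at both segments.

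Trbj1-5 had the largest rise of the mean J share and Trbj1-1 the largest fall. Trbj1-5 held 4.76%, 4.10% and 3.41% in WT and 6.13%, 4.52%, 4.20%, 5.39% and 5.08% in Furin KO. Only WT replicate 1 lay inside the Furin KO range, and the log2 ratio of 0.31 had an exact permutation p of 0.143, the lowest of the 14 J segments. Trbj1-1 held 8.53%, 5.10% and 8.49% in WT and 6.46%, 6.52%, 6.93%, 5.71% and 3.58% in Furin KO. WT replicate 2 lay among the Furin KO libraries, and the log2 ratio was -0.34 (exact permutation p = 0.214). By counts rather than shares, the log2 fold changes of the 14 J segments ran from -0.30 to 0.28 with a median of -0.04, 6 above 0 and 8 below. None of the 14 had shares that did not overlap between genotypes (2.9% of all genes tested did not overlap by CPM). The count became 1 without WT replicate 1 or in the 8-week libraries alone (Trbj1-5 higher), 1 without WT replicate 2 (Trbj1-1 lower) and 1 without Furin KO replicate 5 (Trbj2-3 higher). A full separation arises more easily with fewer libraries, and the share of all genes was not taken for these smaller sets. These counts of 1 are therefore not read as results about the segments.

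**Figure D5:**
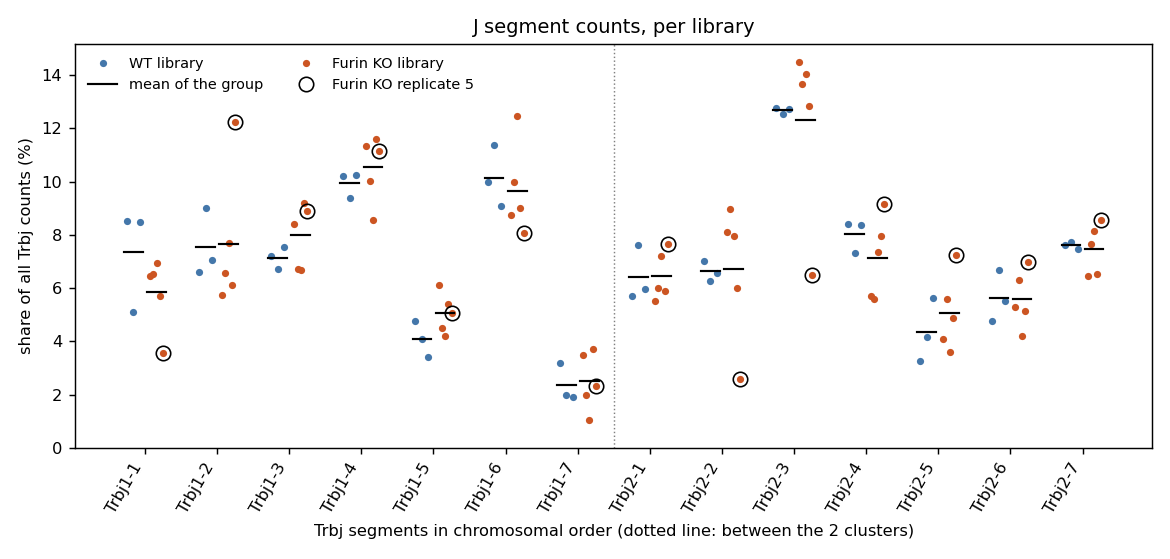
Share of each J segment in all Trbj counts (percent) for each library, in chromosomal order, with group means as black lines and Furin KO replicate 5 ringed. The ringed library is the lowest at Trbj1-1 (3.58%), Trbj2-2 (2.58%), Trbj2-3 (6.49%) and Trbj1-6 (8.07%). It is the highest at Trbj1-2 (12.2%), Trbj2-4 (9.15%), Trbj2-7 (8.57%), Trbj2-1 (7.65%), Trbj2-5 (7.24%) and Trbj2-6 (6.99%).

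The J profile of Furin KO replicate 5 stood apart from all others. The share of Trbj counts that would have to move was 14.6% to 20.6% (median 18.4%) in its 7 pairs, while the medians of the other 7 libraries over their own pairs were 7.70% to 9.56%. Counting error alone would give 3.89% to 5.34%. In this library Trbj2-2 was 2.58% (95% Wilson interval 1.82% to 3.64%), against 6.02% to 8.96% in the other libraries. Trbj1-2 was 12.2% (10.5% to 14.2%), against 5.75% to 9.004%. It was also the library with the fewest counts in all and the fewest Trbj counts, 1202. Its V usage was less set apart, with a median of 7.67% over its 7 pairs, against 6.10% to 7.56% for the other libraries.

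The constant regions and the genes of receptor assembly and recombination gave no call either. Trbc1 stood at 423 ± 21.7 CPM in Furin KO and 418 ± 24.4 CPM in WT, and Trbc2 at 1033 ± 42.3 and 1068 ± 131 CPM. The log2 fold changes were 0.02 (95% interval -0.16 to 0.20) and -0.05 (-0.24 to 0.14). Of the 22 listed genes, which include Trac, the CD3 chains, the CD8 chains and the end-joining factors, 19 were tested. By edgeR 0 passed in either direction, against 0.032% of all genes tested, and by DESeq2 also 0. At an unadjusted edgeR p under 0.05 the count was 0 of 19, against 3.21% of all genes tested. So few genes would be called at these shares that the counts of 0 are not read as a result about the list. The log2 fold changes of the 19 ran from -0.31 (Hmgb2, a DNA-bending cofactor of the recombinase) to 0.26 (Dclre1c, the nuclease Artemis that opens hairpin ends). Rag1 and Rag2 had 0 counts in all 8 libraries, which allows at most 0.265 CPM in the shallowest one. Ptcra, the surrogate alpha chain of thymocytes, was at 0.291 CPM in Furin KO replicate 1 and at 0 in every other library. It did not pass the filter on low counts and was not tested. Dntt, the polymerase that adds untemplated bases at joints, was at 12.4 ± 0.968 CPM in Furin KO and 10.9 ± 1.03 CPM in WT, and did not pass (log2 fold change 0.19).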

How the data were processed

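The authors deposited raw whole-number counts per Ensembl gene for 8 libraries in 1 table. FastQC, Trim Galore, STAR, DESeq2 1.24.0 and GRCm38 are named per the submitters' processing notes. The counting program, annotation, strand setting and treatment of multi-mapping reads were not given in the sources used here, so near copies and overlapping segments are uncertain. Columns were assigned by sample title. Symbols, coordinates and sequences came from GENCODE M21: 55394 IDs were matched and 179 were left without a symbol.

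On these counts edgeR 4.0.16 (R 4.3.3; TMM, filterByExpr by genotype, quasi-likelihood test without covariates) was fitted on 12500 genes and adjusted by Benjamini-Hochberg over all of them. It was tested on simulated data. DESeq2 1.42.0 was an alternative. Shares were taken within Trbv, Trbd or Trbj counts, with Wilson intervals at 95% and exact permutation tests over libraries (SciPy 1.17.1). The limit for 0 counts was 3 counts. Alternatives were other size factors and filters, age as a factor, the 8-week libraries, Trbv totals as library sizes, functional segments only, families summed, shares per length and each library left out; the library set as a factor was chosen after seeing the data.

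The members, marker lists and pathway list were chosen with earlier results of these data known. Named with all values were the 6 V and 3 J segments with the highest mean share, the 2 V segments (of those with a mean share of at least 1%) and 1 J segment with the largest rise and fall of the share, both D segments and any segment that passed. Trbj1-2, Trbj2-2 and Trbv29 lie outside this rule and were named after their values were seen. Recombination signals and promoters were not analysed here.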

Additional observations from a re-analysis of the deposited data

Results flagged for a closer look

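In 4 of 40 values checked over the 5 Furin KO libraries, 1 library lay far from the other 4 by Dixon's test; about 2 would be flagged by chance at 1 in 20. Furin KO replicate 1 had a Trbv1 share of 4.96% of the Trbv counts, where the other 4 had 3.02% to 3.40%. Furin KO replicate 5 accounted for the other 3. Its Trbv26 share was 2.59%, against 1.85% to 1.96%. Its Trbj2-3 share was 6.49% of the Trbj counts, against 12.8% to 14.5%. Its total was 11308220 counts, against 18641969 to 21040431. The distant Trbv26 and Trbj2-3 shares came from this shallow library and the distant Trbv1 share from a deep one of 20841485 counts. The part of depth in them was not tested.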

How the results depend on the processing

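The count of segments that passed edgeR's test was 0 under each of the other settings run, DESeq2 included, as was the count of pathway genes. V segments with shares that did not overlap numbered 0, and 1 with functional segments only or per length (Trbv29 in both), 3 in the 8-week libraries and 0 to 3 with 1 library left out. For J segments the count was 0, then 1 in the 8-week libraries and 0 to 1 with 1 library left out. The share of all genes was not taken for these smaller sets. The Trbj1 share and the summed Trbv share moved by less than the replicate SD. Of 272 alternative log2 fold changes of 16 named segments, 15 changed sign and none passed. Trbv13-2 came to -0.024 in the 8-week libraries. Trbd2 came to 0.0012 with RLE size factors and 0.0020 with DESeq2. With 1 library left out, log2 fold changes ranged from -0.071 to 0.22 for Trbv13-2, -0.0068 to 0.31 for Trbv13-1, -0.29 to 0.031 for Trbv16, -0.17 to 0.13 for Trbj2-3, -0.036 to 0.17 for Trbj1-4, -0.30 to 0.13 for Trbj1-6 and -0.24 to 0.11 for Trbd2. The Trbv13-3 usage ratio came to 0.0080 where families were summed, since it then stands for the Trbv13 family. Without WT replicate 3 the usage ratios of Trbv16 (-0.21) and Trbv26 (0.67) reached an exact permutation p of 0.0476, the smallest that 5 against 2 libraries allow. The labels name no pairs of WT and Furin KO libraries, and the replicate numbers used here only follow the sample order within each genotype. No fit by pairs was therefore run. Fits with the library set or the age as a factor called 0 segments, and 8 genes up and 4 down or 3 up and 1 down over all genes. Counts of 1202 to 2655 for J and 129 to 381 for D limit those shares, and recombination signals and promoter motifs were not run.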
